A study of Mus musculus with 20 samples.

Results

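The basement membrane genes described here are 9 genes that encode structural proteins of the basement membrane, namely Col4a1, Col4a2, Col18a1, Nid1, Hspg2, Lama3, Lama5, Lamb3 and Lamc1. They were taken by name, and each name matched 1 of the 45706 gene identifiers in the count tables. Of the 9, 7 are collagen or laminin chains, while Nid1 encodes nidogen and Hspg2 encodes perlecan, which belong to neither family. All 9 passed the filter on low counts in tumors, where 18617 genes were tested, and in cultured cells, where 15178 were tested.

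A basement membrane is the sheet of matrix on which epithelium rests and which also wraps capillaries, adipocytes and muscle. Laminin trimers, each built from an alpha, a beta and a gamma chain, assemble at the cell surface, collagen IV forms a second, covalently crosslinked network, and nidogen and perlecan connect both networks. In the mammary gland, luminal and myoepithelial cells, fibroblasts, endothelial cells and adipocytes all contribute to this sheet, and carcinoma cells cross it when a lesion becomes invasive.

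RNA sequencing was done on mammary tumors and on cultured tumor cells of PyMT mice, in which the polyoma middle T oncogene is expressed from the MMTV promoter. The aspartic protease cathepsin D (CTSD), encoded by Ctsd, was present or deleted. The tumors came from 18-week-old animals, 4 CTSD-competent controls and 4 MMTV-cre;Ctsd-/- mice, all carrying PyMT. The control group is labelled wild type, and by the methods a control may carry intact or floxed Ctsd alleles. Cre is driven by the MMTV promoter, so deletion reaches the mammary epithelium and the stroma keeps Ctsd. The cells were immortalized tumor cells from a Ctsd+/+ PyMT mouse and from an MMTV-cre;Ctsd-/- PyMT mouse, each kept in medium with 1% fetal calf serum for 10 days (1% FCS) or for 12 weeks (1% FCS LT), with 3 libraries in each of these 4 groups. Each genotype is thus represented by 1 line, so a difference between genotypes and a difference between lines cannot be told apart in the cells. The methods call replicates independent experiments, while the labels do not say whether the libraries of a group came from separate cultures. As all libraries of a genotype share a line, p-values from the cells measure the spread within lines only.

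The libraries held between 49725437 and 64291587 gene counts in tumors and between 33622831 and 40239762 in cells. Levels are given in CPM, the counts of a gene relative to the TMM-scaled total of its library, and per kilobase of annotated exon where genes are compared with one another. Ctsd itself was at 1781 to 2617 CPM in control tumors against 360.2 to 1295 CPM in Ctsd-/- tumors, and at 1267 to 4199 CPM in Ctsd+/+ cells against 114 to 192 CPM in Ctsd-/- cells, with no overlap in either material. Even so, Ctsd was not called in tumors by edgeR's quasi-likelihood test (log2 −1.25 ± 0.38, unadjusted p = 0.00776, adjusted p = 0.463). Markers of luminal epithelium summed to between 4967 and 10895 CPM in 9 of the 12 cell libraries, but to only 958 to 1795 CPM in the 3 Ctsd+/+ libraries in 1% FCS. In those same 3 libraries 10 fibroblast markers summed to 1473 to 3629 CPM, against 3.24 to 104 CPM in the other 9. In them Col1a1 was at 531 to 2320 CPM and Pdgfrb at 160 to 694 CPM, while Lum and Dpt were at 0 counts in all 3. The other fibroblast markers had means of 213 CPM (Postn), 107 CPM (Col3a1), 37.8 CPM (Pdgfra), 2.27 CPM (Col1a2), 0.74 CPM (Dcn) and 0.029 CPM (Pi16). The 3 libraries are labelled as tumor cells like the rest, and the results that rest on them are given with these marker values.

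Positions are given on the GRCm38 build. Col4a1 (ENSMUSG00000031502, chr8:11198423-11312826, minus strand) and Col4a2 (ENSMUSG00000031503, chr8:11312805-11449287, plus strand) are neighbours that point away from each other, and their 5′ exons share the 22 bases at chr8:11312805-11312826. Nid1 (ENSMUSG00000005397) is at chr13:13437551-13512269 and Hspg2 (ENSMUSG00000028763) at chr4:137468769-137570630, both on the plus strand. Lamb3 (ENSMUSG00000026639, plus strand) and Lamc1 (ENSMUSG00000026478, minus strand) are both on chromosome 1, at chr1:193207699-193343878 and chr1:153218922-153332786. Lama5 (ENSMUSG00000015647, chr2:180176373-180225859) and Col18a1 (ENSMUSG00000001435, chr10:77052178-77166548) are on the minus strand, and Lama3 (ENSMUSG00000024421, chr18:12333819-12583013) on the plus strand. Exons shared with another gene on either strand made up 1.83% of the exon length of Lama3, 0.982% of Col4a2 and 0.295% of Col4a1, and there was no such sharing for the other 6.

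Upstream sequence is shown for 3 genes that stood for the patterns in cells described further on, Nid1 and Hspg2, which were highest in Ctsd+/+ cells in 1% FCS, and Lamb3, which was lowest in them. Each stretch is RefSeq sequence of build GRCm38.p6, plus strand, from the bases before a RefSeq start that lie in no annotated exon. The Lamb3 stretch lies within the span annotated for Lamb3. Capitals mark matches on either strand, with GGGCGG taken as the letters of a GC box and CCAAT as those of the box of that name. An AP-1 element was searched as TGANTCA and was not found in any stretch. A TATA box was searched as TATAAA, and an E-box was searched with the letters CACCTG, with no match either.

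Nid1, chr13:13437352-13437550: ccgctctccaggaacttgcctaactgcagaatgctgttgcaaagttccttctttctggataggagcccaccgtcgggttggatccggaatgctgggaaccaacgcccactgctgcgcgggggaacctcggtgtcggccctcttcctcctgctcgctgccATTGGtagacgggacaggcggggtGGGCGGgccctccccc

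Hspg2, chr4:137468553-137468768: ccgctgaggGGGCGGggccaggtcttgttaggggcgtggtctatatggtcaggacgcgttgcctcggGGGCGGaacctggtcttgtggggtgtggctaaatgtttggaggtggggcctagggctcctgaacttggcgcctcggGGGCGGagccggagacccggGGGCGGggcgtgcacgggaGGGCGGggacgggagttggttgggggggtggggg

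Lamb3, chr1:193301744-193301992: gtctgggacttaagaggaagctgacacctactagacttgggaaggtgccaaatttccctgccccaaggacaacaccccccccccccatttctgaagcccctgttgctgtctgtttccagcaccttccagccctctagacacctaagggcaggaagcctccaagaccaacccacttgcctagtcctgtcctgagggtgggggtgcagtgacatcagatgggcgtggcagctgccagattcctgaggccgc

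The Hspg2 stretch held 5 GC boxes, and 27.9% of the 32851 RefSeq windows held at least 1 over the same length. The Nid1 stretch held 1 GC box and 1 CCAAT box, found in 24.4% and 28.2% of windows of its length. None of the 5 sets of letters was found in the Lamb3 stretch, whereas GC boxes stood in 32.6% of windows of its length.

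**Figure D1:**
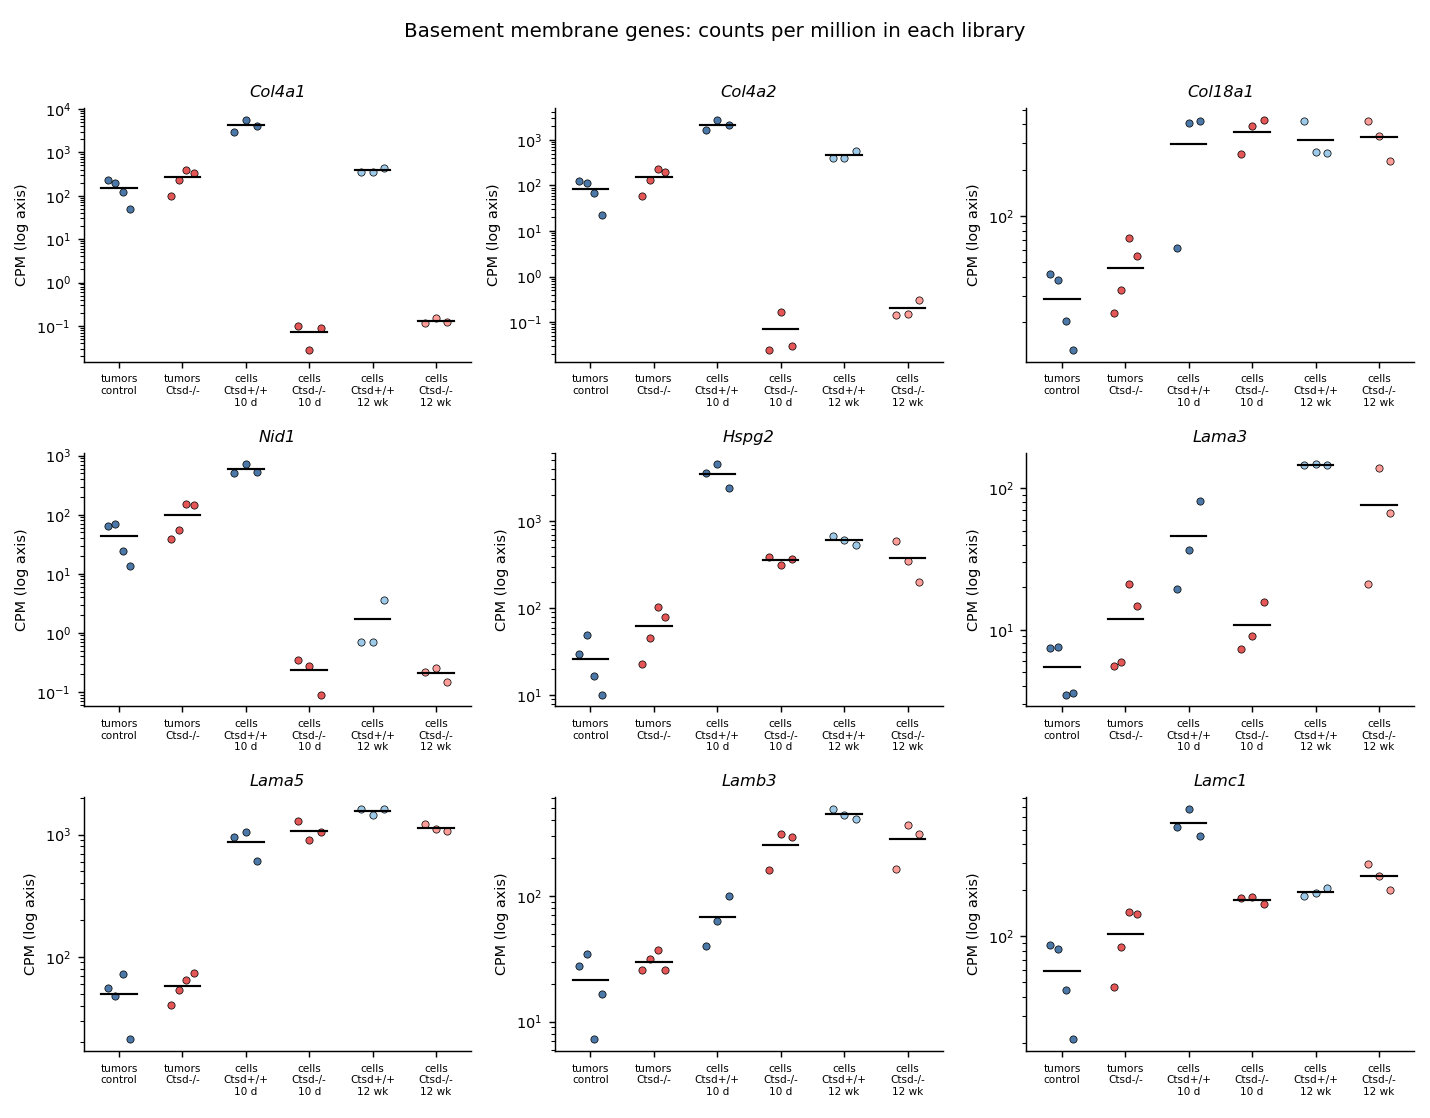
CPM on a logarithmic axis for the 9 basement membrane genes, with 1 point for each library, a black line at the mean of each group, and groups of 4 tumors or 3 cell libraries along the x axis (10 d, 1% FCS for 10 days; 12 wk, 1% FCS LT for 12 weeks). Control and Ctsd-/- tumors overlapped for all 9 genes, and Col4a1, Col4a2 and Nid1 were below 1 CPM in all Ctsd-/- cell libraries.

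In tumors all 9 genes had a higher mean in Ctsd-/- than in control animals, by 1.18 to 2.38 times, but the groups overlapped for every gene and none passed the test. Beside these 0 of 9 without overlap, 4.15% of all genes tested did not overlap. The comparison asks what loss of CTSD in the epithelium changed in the whole tumor, stroma included. Col4a1 and Col4a2 encode the 2 chains of the common collagen IV network. Col4a1 was at 230.4, 197, 119 and 50.5 CPM in the control tumors and at 98.1, 225, 399 and 339.7 CPM in the Ctsd-/- tumors. Control tumor 4 was the lowest of all 8 and Ctsd-/- tumors 3 and 4 the highest, and Ctsd-/- tumor 1 lay below 3 of the 4 controls. Col4a2 had the same lowest and highest tumors, with 125, 114, 68.7 and 22.4 CPM in controls against 58.7, 131, 230.3 and 200.1 CPM. The log2 difference was 0.83 ± 0.50 (SE) for Col4a1 and 0.91 ± 0.53 for Col4a2, with adjusted p-values of 0.622 and 0.612 by edgeR's quasi-likelihood test.

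Col18a1, a basement membrane collagen whose carboxy-terminal fragment is endostatin, was at 41.7, 38.1, 20.3 and 13.1 CPM in control tumors and 22.9, 32.7, 72.0 and 54.7 CPM in Ctsd-/- tumors, and the log2 difference was 0.69 ± 0.43 (adjusted p = 0.632). The largest differences among the 9 were those of the 2 linkers. Nid1 was at 65.6, 69.6, 24.6 and 13.6 CPM in controls and at 38.6, 55.4, 154 and 145 CPM in Ctsd-/- tumors. Hspg2 was at 30.1, 49.0, 16.6 and 10.1 CPM and at 22.8, 45.8, 104 and 78.9 CPM. For both, Ctsd-/- tumors 3 and 4 exceeded all controls and tumors 1 and 2 lay within the range of the controls. The log2 differences were 1.18 ± 0.58 (adjusted p = 0.577) for Nid1 and 1.25 ± 0.54 (adjusted p = 0.555) for Hspg2.

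Among the laminin chains, Lama3, the alpha chain of the laminin that anchors hemidesmosomes, was the least abundant of the 9 genes per kilobase in tumors. It was at 7.37, 7.56, 3.46 and 3.58 CPM in controls against 5.59, 5.87, 21.1 and 14.8 CPM, a log2 difference of 1.11 ± 0.48 (adjusted p = 0.555). Its partner Lamb3 was at 27.9, 34.6, 7.21 and 16.6 CPM against 25.5, 31.5, 36.9 and 25.5 CPM, so that control tumor 3, not 4, was lowest, and the log2 difference was 0.47 ± 0.40 (adjusted p = 0.708). Lamc1, the gamma chain of most laminins, followed collagen IV with 87.2, 81.9, 44.6 and 21.0 CPM against 46.5, 85.1, 144 and 139.7 CPM, a log2 difference of 0.82 ± 0.47 (adjusted p = 0.603). Lama5, the alpha chain of the laminins found in most adult epithelial basement membranes, differed least. Its levels were 56.1, 48.0, 72.7 and 21.1 CPM against 40.8, 53.3, 64.4 and 74.5 CPM, with a log2 difference of 0.23 ± 0.34 (adjusted p = 0.824), which fell to −0.02 without control tumor 4.

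At an adjusted p under 0.05, 0 of the 9 genes was called in tumors, where 0.00537% of all genes tested were called. Limma-voom and DESeq2 also called 0 of the 9, beside 0.0107% and 1.42% of all genes. The only gene called in tumors by edgeR's quasi-likelihood test was not one of the 9. At an unadjusted p under 0.1, the rule the study used for tumors, 3 of 9 were higher and 0 lower, namely Nid1, Hspg2 and Lama3. At that rule 8.44% of all genes tested were higher, and 2 of the 9, beside 8.94% of all genes, were at an unadjusted p under 0.05. The median log2 difference of the 9 was 0.83, beside 0.00 over all genes tested.

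Markers of several cell types, stromal and epithelial, moved with these genes. All 10 endothelial markers were higher in Ctsd-/- tumors, 8 of them at an unadjusted p under 0.1, and their summed level was 107 to 208 CPM in controls and 152 to 541 CPM in Ctsd-/- tumors, with Ctsd-/- tumors 3 and 4 the highest. All 10 adipocyte markers were higher too, summing to 583 to 5918 CPM in controls and 3702 to 26393 CPM in Ctsd-/- tumors. The 10 fibroblast markers overlapped, at 1073 to 4005 CPM and 2115 to 3443 CPM. The 8 myoepithelial markers summed to 1055, 1384, 853 and 571 CPM in control tumors 1 to 4. In Ctsd-/- tumors 1 to 4 they summed to 612, 878, 2275 and 1466 CPM. Pericyte markers were also highest in Ctsd-/- tumors 3 and 4, at 270 and 301 CPM, whereas luminal and macrophage markers did not follow this order. Myoepithelial and pericyte markers were not used as covariates. With the endothelial markers as a covariate, the log2 difference became −0.26 for Col4a1, −0.17 for Col4a2, −0.31 for Col18a1, −0.20 for Nid1, −0.15 for Lama3 and −0.17 for Lamc1, and it was −0.0019 for Hspg2. With the adipocyte markers as a covariate it was −0.0047 for Col18a1, −0.080 for Nid1 and −0.15 for Lama3, and the other genes stayed positive. A share of cells and an RNA level per cell cannot be told apart in whole tumors.

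The share of ambiguous reads, those that fall on more than 1 gene, among all reads on genes also moved with these levels. It was 10.2%, 11.5%, 15.5% and 18.8% in control tumors 1 to 4 and 12.0%, 10.1%, 9.54% and 8.62% in Ctsd-/- tumors 1 to 4. Control tumor 4 had the highest share, the lowest depth and the lowest Col4a1, and Ctsd-/- tumors 3 and 4 had the lowest shares and the highest Col4a1. Its part in the results was not tested.

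**Figure D2:**
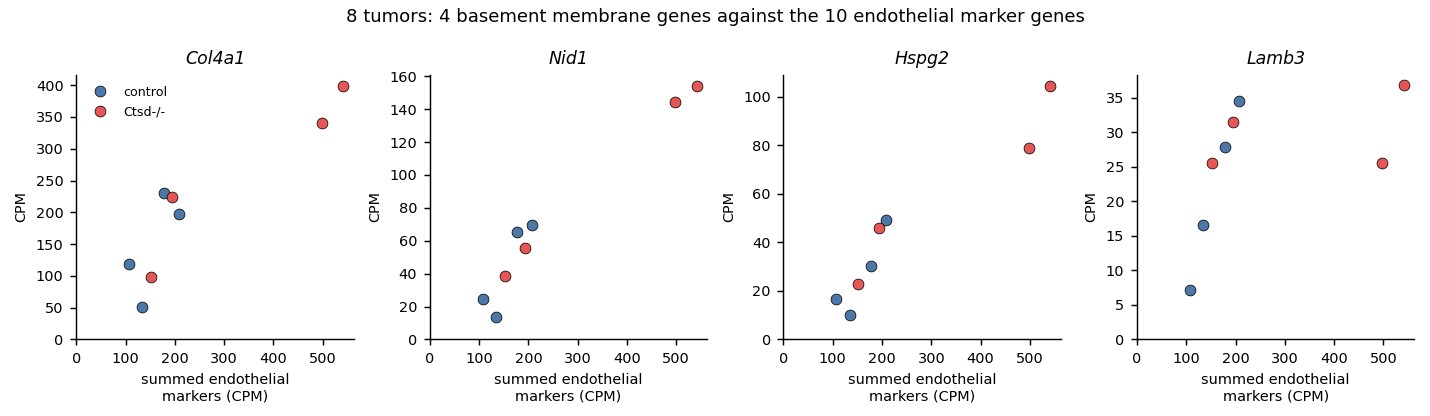
CPM of Col4a1, Nid1, Hspg2 and Lamb3 (y axis) in the 8 tumors against the summed CPM of 10 endothelial marker genes (x axis), with 4 control tumors in blue and 4 Ctsd-/- tumors in red. Ctsd-/- tumors 3 and 4, with endothelial sums of 541 and 498 CPM, had the highest Col4a1, Nid1 and Hspg2, and Lamb3 did not follow this order.

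The genes varied together from tumor to tumor. Over the 8 tumors the log2 level of Col4a1 correlated with that of Col4a2 at r = 0.995, and among 12816 genes ranked by their correlation with Col4a1 the first 5 were Col4a2, Lamc1 (r = 0.993), Lamb1 (r = 0.990), Ripk1 (r = 0.990) and Lnx2 (r = 0.987). Lamb1 encodes a laminin beta chain that pairs with Lamc1, and Ripk1 encodes a kinase of death receptor signaling. Nid1, Hspg2 and Col18a1 correlated with Col4a1 at r between 0.946 and 0.975, whereas Lama5 and Lamb3 did so at 0.796 and 0.557 and with each other at 0.00612. These are descriptions over 8 libraries that share the difference between the genotypes.

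In cells kept in 1% FCS for 10 days, 7 of the 9 genes differed between the genotypes. Col4a1, Col4a2 and Nid1 were near 0 in Ctsd-/- cells, Hspg2, Lamc1 and Lama3 were lower, Lamb3 was higher, and Col18a1 and Lama5 did not pass the test. That makes 6 lower and 1 higher at an adjusted p under 0.05, beside 25.1% and 23.5% of all genes tested. The median log2 difference of the 9 was −2.10, beside 0.00 over all genes tested. As given above, the Ctsd+/+ libraries of this comparison carried 1473 to 3629 CPM of fibroblast markers against 8.34 to 33.4 CPM in the Ctsd-/- libraries, and 958 to 1795 CPM of luminal markers against 8106 to 10895 CPM. The part of these markers in the results was not tested.

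Col4a1 was at 2930, 5678 and 4083 CPM in Ctsd+/+ cells and was read 4, 1 and 3 times in the 3 Ctsd-/- libraries. Col4a2 was at 1603, 2773 and 2087 CPM and was read 1, 6 and 1 times. So few reads fix no precise fold change. From summed counts the ratio of Ctsd+/+ to Ctsd-/- was 58700 for Col4a1, with an exact 95% counting interval of 29800 to 136000, and 29900 for Col4a2, with an interval of 15200 to 69300. The intervals cover counting error only. Both differences were called by edgeR's quasi-likelihood test (adjusted p = 6.67e-10 and 2.62e-09), and the fitted log2 difference of Col4a2 moved from −14.81 to −16.13 without Ctsd-/- replicate 2, which held 6 of its 8 reads.

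Col18a1 was at 61.8, 409 and 420.4 CPM in Ctsd+/+ cells, and in Ctsd-/- cells its values were 255, 391 and 430.5 CPM. The groups overlapped, and replicate 1 of the Ctsd+/+ cells stood far below its 2 fellows. The log2 difference was 0.27 ± 0.53 (adjusted p = 0.694) and became −0.21 without that library.

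Nid1 was at 506, 717 and 539 CPM in Ctsd+/+ cells and was read 14, 10 and 3 times in Ctsd-/- cells, a ratio of 2410 with a counting interval of 1660 to 3660 (adjusted p = 2.94e-07). Hspg2 was present in both lines. It was at 3524, 4488 and 2397 CPM in Ctsd+/+ cells and at 383, 313.5 and 366 CPM in Ctsd-/- cells, which was 9.80-fold lower (log2 −3.29 ± 0.35, adjusted p = 1.75e-05). Both linkers were thus lower, as Col4a1 and Col4a2 were, but perlecan transcripts were abundant in the line where nidogen transcripts were not.

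The laminin chains went both ways. Lamb3 was at 40.0, 63.5 and 99.1 CPM in Ctsd+/+ cells and at 162, 312 and 293 CPM in Ctsd-/- cells, 3.78-fold higher (log2 1.92 ± 0.36, adjusted p = 0.00104). Lama3, its alpha chain partner, was at 19.3, 36.6 and 81.4 CPM in Ctsd+/+ cells and lower in Ctsd-/- cells, at 7.35, 9.04 and 15.8 CPM (log2 −2.10 ± 0.62, adjusted p = 0.0155). The call on Lama3 was lost when Ctsd+/+ replicate 3 (log2 −1.41, adjusted p = 0.0730), Ctsd-/- replicate 1 (log2 −1.88, adjusted p = 0.0577) or Ctsd-/- replicate 2 (log2 −1.99, adjusted p = 0.0559) was left out, and over all libraries left out in turn the adjusted p ran from 0.00686 to 0.0730. Limma-voom did not call it either (log2 −1.96, adjusted p = 0.0504). The 2 chains of one laminin thus differed in opposite directions.

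Lamc1 was at 520, 684 and 451 CPM in Ctsd+/+ cells and at 177, 179.6 and 163 CPM in Ctsd-/- cells, 3.18-fold lower (log2 −1.67 ± 0.17, adjusted p = 1.02e-05). The groups were far from overlapping. Lama5 was at 952, 1041 and 606 CPM against 1295, 897 and 1044 CPM, with overlapping groups and a log2 difference of 0.32 ± 0.19 (adjusted p = 0.196). It was the most abundant of the 9 genes per kilobase in Ctsd-/- cells, at 94.7 ± 17.7 CPM per kb (SD, n = 3), whereas Col4a1 was in Ctsd+/+ cells, at 567 ± 185 CPM per kb.

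After 12 weeks in 1% FCS the 2 lines differed in 3 of the 9 genes, Col4a1, Col4a2 and Nid1, which were all lower in Ctsd-/- cells. Beside these 3 lower and 0 higher, 19.1% and 20.5% of all genes tested were called. The comparison asks what still separated the lines after 12 weeks in 1% FCS. Fibroblast markers summed here to 3.24 to 8.47 CPM in Ctsd+/+ cells and to 104, 17.3 and 11.5 CPM in Ctsd-/- replicates 1, 2 and 3, and luminal markers were at 4967 to 5349 and 5899 to 6873 CPM.

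Col4a1 was at 357, 352 and 445 CPM in Ctsd+/+ cells and was read 5, 6 and 5 times in Ctsd-/- cells, a ratio of 2940 with a counting interval of 1810 to 5150 (adjusted p = 3.68e-09). Col4a2 was at 409, 409 and 564 CPM and was read 6, 6 and 13 times, a ratio of 2260 with an interval of 1530 to 3490 (adjusted p = 1.31e-08). Transcripts of these 2 chains were therefore still present in one line and nearly absent in the other. Of the other collagen IV chains, Col4a5 was at 161 to 195 CPM in these Ctsd-/- cells, against 246 to 407 CPM in Ctsd+/+ cells. Col4a6 was at 0.28 to 0.41 CPM against 270 to 312 CPM. Nid1 was low in both lines, at 26, 26 and 144 reads in Ctsd+/+ and 9, 10 and 6 reads in Ctsd-/- cells. Its ratio was 8.39 with a counting interval of 5.52 to 13.3 and was called (log2 −3.03 ± 0.71, adjusted p = 0.00526), and without Ctsd+/+ replicate 3 the log2 difference was −1.75 and still called (adjusted p = 0.00573).

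The other 6 genes did not pass the test in 1% FCS LT. Lamb3 was at 493, 440.5 and 412 CPM in Ctsd+/+ and 165, 367 and 312 CPM in Ctsd-/- cells, with no overlap and a log2 difference of −0.67 ± 0.35 (adjusted p = 0.151). Lama3 was at 145, 148 and 146 CPM in Ctsd+/+ cells and at 21.0, 138 and 67.0 CPM in Ctsd-/- cells, where the 3 libraries were far apart (log2 −0.95 ± 0.59, adjusted p = 0.228). Lama5, at 1615, 1458 and 1625 CPM against 1210, 1109 and 1077 CPM, did not overlap either (log2 −0.47 ± 0.19, adjusted p = 0.0734). DESeq2 (adjusted p = 0.0398) and edgeR fitted on only these 2 groups (adjusted p = 0.00518) did call Lama5. Groups did not overlap for 6 of the 9 genes, all lower in Ctsd-/- cells, beside 26.4% of all genes tested.

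Hspg2 was at 675, 610.4 and 531 CPM in Ctsd+/+ and at 593, 348 and 201 CPM in Ctsd-/- cells (log2 −0.67 ± 0.33, adjusted p = 0.124). Replicate 1 of the Ctsd-/- cells was the high one, and without it the difference of −1.14 was called (adjusted p = 0.0107), over a range of 0.0107 to 0.345 for libraries left out in turn. This is the library with 104 CPM of fibroblast markers, of which Pdgfrb alone made up 84.9 CPM, and their part was not tested. With the LR number of the labels, whose meaning they do not state, as a block the difference was also called (log2 −0.77, adjusted p = 0.0493). Lamc1 was at 183, 192 and 206 CPM against 295, 246 and 200.2 CPM (log2 0.35 ± 0.16, adjusted p = 0.108), and without Ctsd-/- replicate 3 its difference of 0.49 was called (adjusted p = 0.0395). Col18a1, at 421, 265 and 258 CPM against 420.0, 336 and 231 CPM, gave a log2 difference of 0.06 ± 0.53 (adjusted p = 0.937).

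Between 10 days and 12 weeks in 1% FCS, 8 of the 9 genes differed in Ctsd+/+ cells. All cell libraries came from 1% FCS, so time in culture and time in starvation cannot be told apart. From 10 days to 12 weeks Col4a1, Col4a2, Nid1, Hspg2 and Lamc1 fell and Lama3, Lama5 and Lamb3 rose, while Col18a1 did not pass the test. Beside these 3 higher and 5 lower genes, 23.0% and 23.4% of all genes tested were called. Nid1 fell the most, 345-fold (log2 −8.43 ± 0.58, adjusted p = 8.01e-07), and the log2 difference of Col4a1 was −3.46 ± 0.23 (adjusted p = 6.77e-07). Without replicate 3 of the 12-week cells the log2 difference of Nid1 was −9.71. Col4a2 fell 4.68-fold (log2 −2.23 ± 0.26), Hspg2 5.73-fold (log2 −2.52 ± 0.34) and Lamc1 2.85-fold (log2 −1.51 ± 0.17). Fibroblast markers went from 1473 to 3629 CPM down to 3.24 to 8.47 CPM over the same interval. Luminal markers went from 958 to 1795 CPM up to 4967 to 5349 CPM, and the part of either in the results was not tested.

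Of the laminins that rose, Lamb3 went up 6.64-fold (log2 2.73 ± 0.37, adjusted p = 0.000118) and Lama5 1.81-fold (log2 0.85 ± 0.19, adjusted p = 0.00356). Lama3 went up 3.19-fold (log2 1.67 ± 0.61, adjusted p = 0.0397). That call was lost when any library but 1% FCS replicate 3 was left out, with adjusted p-values up to 0.112, and without 1% FCS replicate 3 the log2 difference was 2.39. It was also lost with the LR number as a block (log2 1.47, adjusted p = 0.0760) and within the 8 libraries of 1 LR number (log2 1.31, adjusted p = 0.189). The 3 Lama3 values in 1% FCS LT lay between 145 and 148 CPM, and the 10-day libraries spread from 19.3 to 81.4 CPM.

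In Ctsd-/- cells only Lama3 passed the test for time. It rose from 7.35, 9.04 and 15.8 CPM to 21.0, 138 and 67.0 CPM, with no overlap (log2 2.82 ± 0.64, adjusted p = 0.0444), beside 1.57% of all genes tested that were higher. The call was lost without any of the 6 libraries other than 12-week replicate 1, with adjusted p-values between 0.0587 and 0.172, and the log2 difference was 2.04 without 12-week replicate 2. Limma-voom did not call it (adjusted p = 0.105). Lamc1 went from 177, 179.6 and 163 CPM to 295, 246 and 200.2 CPM, without overlap either, but did not pass the test (log2 0.51 ± 0.16, adjusted p = 0.125). These 2 and Col4a1 were higher without overlap, beside 13.5% of all genes tested, but Col4a1, with 4, 1 and 3 against 5, 6 and 5 reads, rests on very few counts and passed the filter through the Ctsd+/+ libraries. The summed counts of Col4a1 went from 8 to 16, a ratio of 1.83 with an interval of 0.738 to 4.93, and those of Nid1 from 27 to 25. For Col4a2 they went from 8 to 25, a ratio of 2.86 with a counting interval of 1.25 to 7.32 that leaves out the spread between libraries, and the test that includes it did not call it (adjusted p = 0.311).

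**Figure D3:**
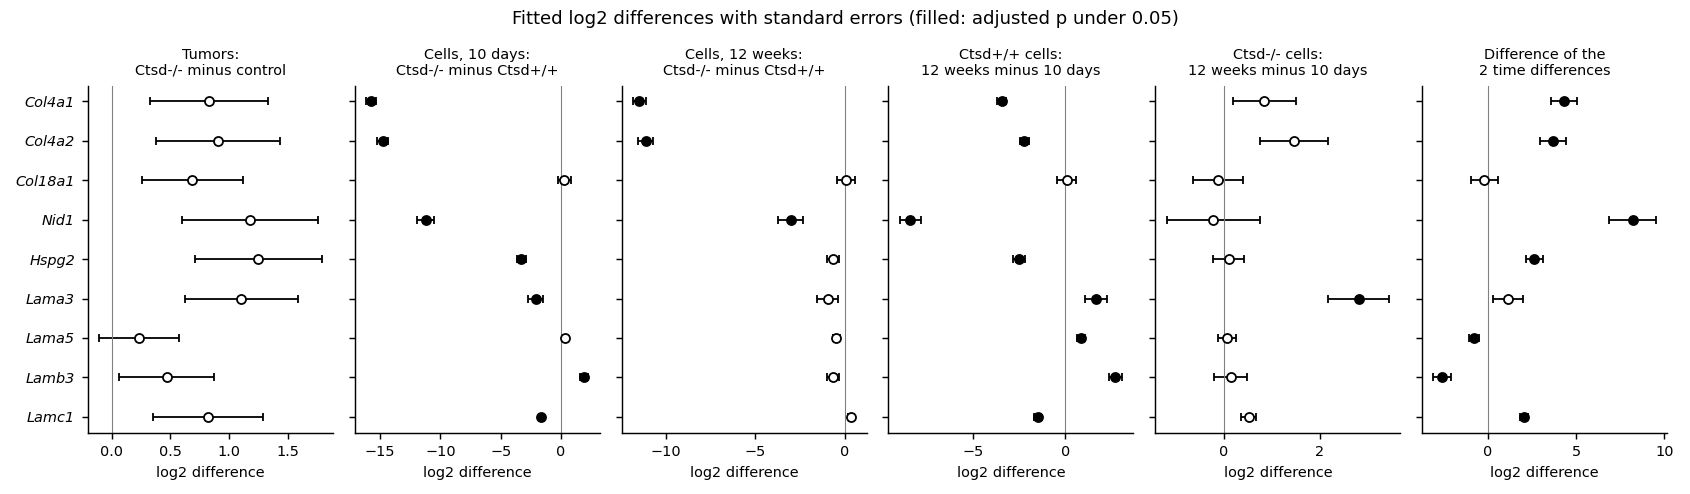
Log2 differences (x axis) with standard errors from edgeR for the 9 genes in 6 comparisons, filled where the adjusted p was under 0.05, with a separate x scale in each panel. No point is filled in tumors, and in the cells Col4a1, Col4a2 and Nid1 have the largest differences between genotypes, whose sizes rest on 1 to 14 reads a library in Ctsd-/- cells.

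The change over time differed between the genotypes for 7 of the 9 genes, as tested by the interaction of genotype and culture time. The interaction was positive for Col4a1, Col4a2, Nid1, Hspg2 and Lamc1 and negative for Lama5 and Lamb3, beside 16.1% and 14.1% of all genes tested. It includes the Ctsd+/+ libraries in 1% FCS, with 1473 to 3629 CPM of fibroblast and 958 to 1795 CPM of luminal markers. Of the fibroblast markers tested, 4 of 6 had a positive interaction (median log2 9.25). All 7 luminal markers tested had a negative one (median log2 −2.84). The part of these markers was not tested. For Lamc1 the interaction was 2.02 ± 0.23 (adjusted p = 7.33e-05), with a fall in Ctsd+/+ cells and a difference of the opposite sign in Ctsd-/- cells that did not pass the test. For Hspg2 it was 2.62 ± 0.47 (adjusted p = 0.00145), with a fall in Ctsd+/+ cells and a log2 difference of 0.10 ± 0.32 in Ctsd-/- cells. For Lamb3 it was −2.59 ± 0.50 (adjusted p = 0.00249), with a rise in Ctsd+/+ cells and a log2 difference of 0.14 ± 0.35 in Ctsd-/- cells. The values for Col4a1 (4.30), Col4a2 (3.69) and Nid1 (8.20) describe a fall in Ctsd+/+ cells set against a line with almost no reads at either time, so their sizes are not well fixed. Without 1 library they reached 5.02 for Col4a2 (Ctsd-/- replicate 2 in 1% FCS) and 9.48 for Nid1 (Ctsd+/+ replicate 3 in 1% FCS LT), and all stayed called. With Ctsd-/- cells near 0 at both times, a fall in Ctsd+/+ cells could give these 3 genes only a positive sign. Their calls therefore repeat that fall. With at least 10 counts in every library, which removes these 3, 3 of 6 genes had an interaction, beside 31% of all genes tested. The Lama5 interaction of −0.78 ± 0.27 (adjusted p = 0.0473) lost its call when any of 8 of the 12 libraries was left out, with adjusted p-values up to 0.101. It was also lost with RLE size factors (adjusted p = 0.0523), with at least 10 counts in every library (adjusted p = 0.0548) and within the 8 libraries of 1 LR number (log2 −0.64, adjusted p = 0.187).

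Ordered by mean level over the 4 cell groups, Hspg2, Col4a1, Col4a2 and Nid1 were all highest in Ctsd+/+ cells in 1% FCS, with no overlap with the next group, and so was Lamc1. That group carried 1473 to 3629 CPM of fibroblast and 958 to 1795 CPM of luminal markers, whose part was not tested. Lama3, Lama5 and Lamb3 were all highest in Ctsd+/+ cells in 1% FCS LT, again with no overlap with the next group. That next group was Ctsd-/- cells in 1% FCS LT, and edgeR's quasi-likelihood test did not call the difference (adjusted p = 0.228, 0.0734 and 0.151). Between those 2 groups 26.4% of all genes tested were lower in Ctsd-/- cells without overlap. The share of all genes that stood highest in a group without overlap was not taken. Col18a1 was the exception. Its 4 group means lay between 297 and 359 CPM and every neighbouring pair of groups overlapped. Summed over the 9 genes, the level was 10155 to 15891 CPM in Ctsd+/+ cells in 1% FCS, 3875 to 4300 CPM in the same cells in 1% FCS LT, and 2088 to 2704 CPM in Ctsd-/- cells at both times, against 172 to 1226 CPM in tumors. Values of tumors and cells were scaled separately and were counted without and with strand, so they stand side by side without a test.

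The ratio of chains that assemble together was taken in each library. Per kilobase of exon, Col4a2 stood at 0.500 to 0.654 of Col4a1 in control tumors, 0.650 to 0.675 in Ctsd-/- tumors and 0.551 to 0.617 in Ctsd+/+ cells in 1% FCS, but at 1.29 to 1.43 in Ctsd+/+ cells in 1% FCS LT. The order of the 2 chains was thus reversed in the long-starved Ctsd+/+ cells, with no overlap with any other group that had enough reads for a ratio. Lama3 stood at 0.298 to 0.506 of Lamb3 in Ctsd+/+ cells in 1% FCS and at 0.0178 to 0.0332 in Ctsd-/- cells in 1% FCS, the lowest of the 6 groups and without overlap with the others. In 1% FCS LT this ratio was 0.181 to 0.218 in Ctsd+/+ cells and 0.0783 to 0.232 in Ctsd-/- cells, which overlapped. Lama5 over Lamc1 was 0.975 to 1.33 in Ctsd+/+ cells in 1% FCS and 2.98 to 6.41 in the other 3 cell groups. The ratios in Ctsd+/+ cells in 1% FCS come from the libraries with 1473 to 3629 CPM of fibroblast markers, whose part was not tested.

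**Figure D4:**
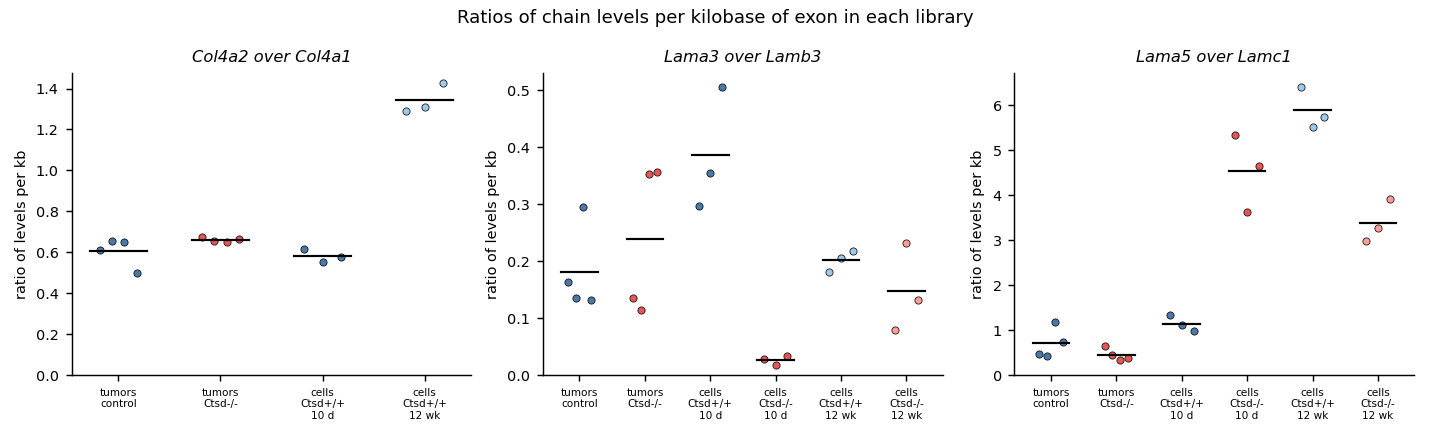
Ratio of levels per kilobase of exon (y axis) for Col4a2 over Col4a1, Lama3 over Lamb3 and Lama5 over Lamc1, with 1 point for each library and a black line at the group mean; Ctsd-/- cells are left out of the first panel, where each chain had at most 13 reads a library. The Ctsd+/+ cells in 1% FCS LT stand above 1.29 in the first panel and all other groups shown at or below 0.675.

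Other genes of the basement membrane were taken from lists drawn up by role. Their values in Ctsd+/+ cells in 1% FCS also come from the libraries with 1473 to 3629 CPM of fibroblast and 958 to 1795 CPM of luminal markers. The part of these markers was not tested for any list. Of 6 other laminin chains, 1 was higher and 2 lower in Ctsd-/- cells in 1% FCS, beside the 23.5% and 25.1% found over all genes. Lamb1, at 835, 1241 and 1079 CPM against 965, 984 and 915 CPM, did not pass the test there (log2 −0.14 ± 0.19, adjusted p = 0.570). Over time it fell in Ctsd+/+ cells, to 500, 363 and 640 CPM, and its interaction was 1.04 ± 0.27 (adjusted p = 0.0129). Lamb2, the other beta chain that pairs with Lamc1, had an interaction of −0.22 ± 0.30 (adjusted p = 0.625). Lama4, an alpha chain of endothelial and mesenchymal basement membranes, was at no more than 8.97 CPM in any cell library and had an interaction of 5.38 ± 1.44.

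Of 6 other basement membrane collagens, all 6 were lower in Ctsd-/- cells in 1% FCS, beside 25.1% of all genes, and 4 had an interaction, all positive, beside 16.1%. Col4a3 and Col4a4, the chains of a more restricted collagen IV network, were at 140, 490.2 and 177 CPM and at 109, 319 and 159 CPM in Ctsd+/+ cells in 1% FCS, and at 1.04 to 4.43 and 3.44 to 14.7 CPM in the same cells in 1% FCS LT. In Ctsd-/- cells Col4a3 was at 12.4, 15.4 and 13.6 CPM and at 6.66, 7.75 and 8.97 CPM, so unlike Col4a1 it was still read in this line. Their interactions were 5.73 ± 0.72 and 3.85 ± 0.66. Col7a1, the anchoring fibril collagen, was at 459, 2487 and 1171 CPM in Ctsd+/+ cells in 1% FCS, at 23.1 to 50.3 CPM in 1% FCS LT, and at 273 to 376 CPM in all Ctsd-/- libraries, with an interaction of 4.77 ± 0.68. Col4a5 had a smaller interaction of 0.88 ± 0.29 (adjusted p = 0.0374).

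Of 14 other basement membrane glycoproteins 11 were tested in cells, 7 were lower and 1 higher in Ctsd-/- cells in 1% FCS (25.1% and 23.5% over all genes), and 6 had a positive and 1, Agrn (agrin), a negative interaction (16.1% and 14.1% over all genes). Sparc, a collagen-binding matricellular protein, was at 3102, 5502 and 3154 CPM in Ctsd+/+ cells in 1% FCS, at 32.6 to 49.3 CPM in 1% FCS LT and at 72.2 to 282 CPM in Ctsd-/- cells, with an interaction of 5.93 ± 0.54. Nid2, the paralog of Nid1, was at 31.7, 27.4 and 18.5 CPM in Ctsd+/+ cells in 1% FCS, at 0.03 to 0.21 CPM in 1% FCS LT, and was read 0 times in all 3 Ctsd-/- libraries in 1% FCS. Its call in the interaction, 1 of the 6, is thus set against a group at 0, and its fitted value is not read as a size. Nid2 stood at 0.0462 to 0.0841 of Nid1 per kilobase in Ctsd+/+ cells in 1% FCS. Fbln1 and Smoc2 also had a positive interaction, 8.50 ± 1.48 and 4.44 ± 0.96, at no more than 4.79 CPM in any cell library and at 0 counts in at least 1 of the Ctsd-/- libraries in 1% FCS, so that the sizes are not well fixed.

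Of 16 enzymes and chaperones that modify or crosslink collagen, 14 were lower and 0 higher in Ctsd-/- cells in 1% FCS, beside 25.1% and 23.5% of all genes. Over time in Ctsd+/+ cells 11 fell and 1 rose, beside 23.4% and 23.0%, and 11 had a positive and 1, P4ha2, a negative interaction, beside 16.1% and 14.1%. P3h1, a collagen prolyl 3-hydroxylase, was at 103, 162 and 102 CPM in Ctsd+/+ cells in 1% FCS, at 10.9 to 17.7 CPM in 1% FCS LT and at 4.62 to 8.40 CPM in Ctsd-/- cells, with an interaction of 3.02 ± 0.37. Serpinh1, the collagen chaperone HSP47, was at 75.5, 65.3 and 41.5 CPM in Ctsd+/+ cells in 1% FCS and at 1.39, 0.60 and 0.21 CPM in Ctsd-/- cells, and then between 1.11 and 64.4 CPM in Ctsd-/- cells in 1% FCS LT, beside 95.1, 50.6 and 104 CPM in Ctsd+/+ cells. Its interaction was 4.57 ± 1.48 (adjusted p = 0.0354), with the 3 long-starved Ctsd-/- libraries far apart. P4ha3 and Loxl2 were called in the interaction too, at no more than 4.74 CPM in any cell library. P4ha3 was at 0 counts in all 3 Ctsd+/+ libraries in 1% FCS LT and Loxl2 at a mean of 0.76 CPM in the group where it was highest, so their fitted values are not read as sizes.

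Among 14 genes of receptors and hemidesmosomes, 5 had a higher and 2 a lower level without CTSD in 1% FCS, where 23.5% and 25.1% of all genes did. A positive interaction was found for 3 and a negative one for 4 (Itgb4, Bcam, Itga2 and Itga6), beside 16.1% and 14.1%. Itgb4, the beta chain of the laminin receptor of hemidesmosomes, was at 732, 513 and 579 CPM in Ctsd+/+ cells in 1% FCS and at 2255, 1996 and 2467 CPM in 1% FCS LT, and at 694 to 853 CPM in all Ctsd-/- libraries (interaction −1.80 ± 0.21, adjusted p = 9.06e-05). Over time in Ctsd+/+ cells Itgb4 rose (log2 1.88 ± 0.15), as Lamb3 did. Dst, a hemidesmosome plakin, had an interaction of 1.67 ± 0.21. Bcam, a receptor for the Lama5 chain, had one of −2.02 ± 0.48 (adjusted p = 0.00812), and Itga1, the alpha chain of a collagen IV receptor, one of 5.39 ± 0.81 at 4.74 to 10.1 CPM in Ctsd+/+ cells in 1% FCS and 0.43 CPM or less in the other cell libraries.

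**Figure D5:**
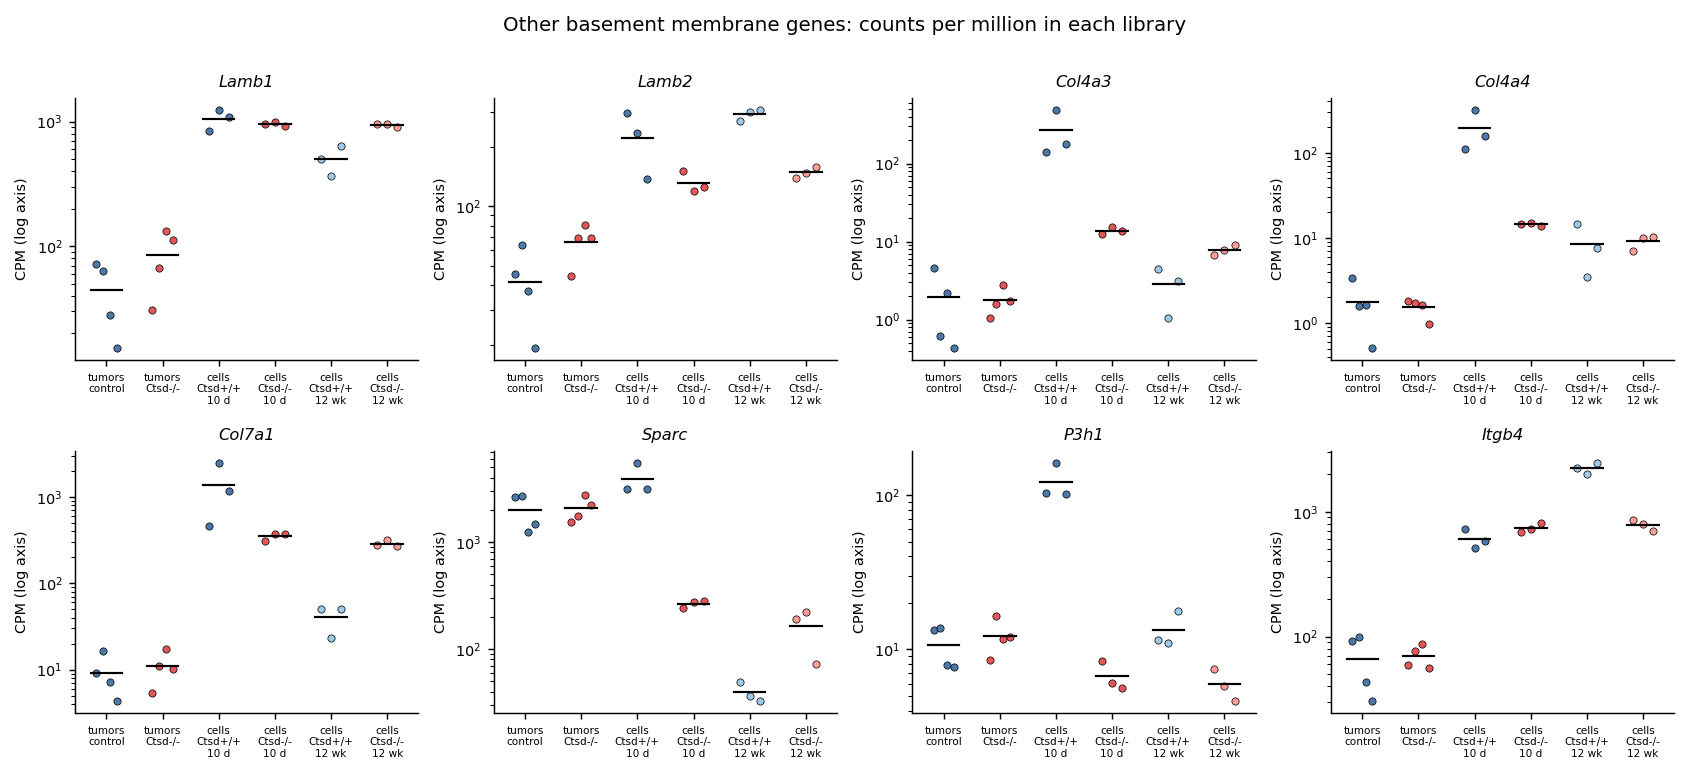
CPM on a logarithmic axis for 8 other basement membrane genes, with 1 point for each library and a black line at the group mean, in the same 6 groups as the plot of the 9 genes. Col4a4 is highest in Ctsd+/+ libraries in 1% FCS (109 to 319 CPM), Sparc and P3h1 are highest there too, and Itgb4 is highest in Ctsd+/+ libraries in 1% FCS LT.

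In tumors none of the genes of these 5 lists passed the test at an adjusted p under 0.05. At an unadjusted p under 0.1, 4 of 6 other laminin chains and 5 of 14 receptor and hemidesmosome genes were higher. So were 1 of 6 collagens, 1 of 14 glycoproteins and 0 of 16 modifying proteins, beside 8.44% of all genes tested. Only 1 gene, the glycoprotein Ntn4, was lower at that rule. It alone was at an unadjusted p under 0.05, beside 8.94% of all genes tested. Ntn4, a netrin that binds laminin gamma chains, was at 18.1, 18.7, 30.9 and 29.7 CPM in controls and at 13.2, 9.03, 7.83 and 3.95 CPM in Ctsd-/- tumors. Its groups did not overlap, as for 4.15% of all genes tested, and it went against the direction of the 9 genes (log2 −1.52 ± 0.36, adjusted p = 0.361). All 6 other laminin chains had a positive log2 difference in tumors, Lama4 with a log2 difference of 0.71 ± 0.32 (adjusted p = 0.561) and Lamb2 with 0.66 ± 0.34 (adjusted p = 0.580). The other lists went both ways, with 2 of 6 collagens, 8 of 14 glycoproteins, 11 of 16 modifying proteins and 10 of 14 receptor and hemidesmosome genes positive. The values of Col4a3 (−0.14), Col4a4 (−0.21), Col4a5 (−0.12) and Col4a6 (−0.14) were negative, as was that of Smoc2 (−0.24). Apart from Ntn4, the genes named for the lowest p in these lists had positive values, 0.94 ± 0.49 for Col15a1, 0.24 ± 0.44 for Col7a1, 0.75 ± 0.36 for Tinagl1, 0.58 ± 0.34 for Loxl2, 0.48 ± 0.30 for Plod3, 0.45 ± 0.22 for Cd151 and 0.69 ± 0.35 for Dst.

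Across the 12 cell libraries the 2 collagen IV chains followed each other with r = 0.994 of log2 CPM. Among 11517 genes ranked by their correlation with Col4a1, Col4a2 was at rank 9, and the first 5 were Eid2 (r = 0.997), Zik1, Lrch2, Slco3a1 and Mmp16, of which the last encodes a membrane-type metalloproteinase. The genes most like Lamb3 were Serpinb5 (r = 0.970), the epithelial serpin maspin, then C77080, Galnt7, Klhdc4 and Brcc3. Nid1 and Hspg2 correlated at r = 0.952 with each other and at 0.836 and 0.831 with Col4a1. Lamb3 correlated negatively with Nid1 (r = −0.802), Hspg2 (r = −0.813) and Lamc1 (r = −0.866). These 12 libraries are 4 groups of 3, so the values describe differences between groups more than variation between cultures.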

How the data were processed

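RNA was sequenced from 8 tumors and 12 cell libraries. The authors trimmed reads, aligned them to mouse (STAR and mm10 in the submitters' processing notes) and deposited STAR gene counts, unnormalized, as whole numbers per gene. STAR's version and the annotation release are not given in the sources used here. In tumors 52.8% to 53.7% of strand-assigned counts lay on the opposite strand, so the counts regardless of strand were used, and reads of overlapping antisense genes cannot be told apart there. In cells the share was 97.1% to 97.3% and opposite-strand counts were used. Totals were 49725437 to 64291587 counts in tumors and 33622831 to 40239762 in cells, which limits precision only for genes near 0. Exact 95% intervals cover counting error only. 0 columns of other samples were left unused.

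Tumors and cells were filtered (filterByExpr), TMM-scaled and fitted separately with edgeR 4.0.16 in R 4.3.3 by the quasi-likelihood test, 2-sided, and p-values were adjusted by Benjamini-Hochberg across the genes tested. All 12 cell libraries entered 1 fit with 4 group means. The SE is the absolute log2 difference divided by the root of F. Correlations used log2 CPM with a prior count of 2. Limma 3.58.1 (voom), DESeq2 1.42.0, other scaling, filters, strand settings, covariates, blocks and leaving out each library were alternatives, and the fits were tested on simulated data.

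Groups came from the labels. The labels also give an LR number, whose meaning they do not state. It coincided with genotype in tumors, so LR number and genotype cannot be told apart there, and in cells it set apart replicate 1 in 1% FCS and replicate 3 in 1% FCS LT of both genotypes. The genes described and the lists were chosen with earlier results of these data known. Beyond the 9 genes and Ctsd, the rule named from each list up to 4 genes called in the interaction with the largest log2 value and 2 with the lowest p in tumors, with Lamb1, Lamb2 and Nid2 always named. An item of these lists is not reported here. The 5 genes with the highest correlation with Col4a1 in cells and in tumors, and with Lamb3 in cells, were named too, among genes with an average log2 CPM above 1.3. Col1a1, Pdgfrb, Lum, Dpt, Cldn5 and the other single markers, and Agrn, P4ha2, Itga2, Itga6 and Col4a6, were named after their values were seen.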

Additional observations from a re-analysis of the deposited data

Results flagged for a closer look

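The change over time in starvation differed between the 2 cell lines, by the interaction term of edgeR's quasi-likelihood test, for Col4a1 (log2 4.30), Col4a2 (3.69), Nid1 (8.20), Hspg2 (2.62), Lamc1 (2.02), Lama5 (−0.78) and Lamb3 (−2.59). Of the genes named from the lists of other laminin chains and basement membrane collagens it differed for Lama4 (5.38), Lamb1 (1.04), Col4a3 (5.73), Col7a1 (4.77), Col4a4 (3.85) and Col4a5 (0.88). Of those named from the glycoproteins and collagen-modifying proteins it differed for Fbln1 (8.50), Sparc (5.93), Smoc2 (4.44), Ntn4 (1.13), Loxl2 (5.74), Serpinh1 (4.57), P3h1 (3.02) and Plod3 (0.94). Of those named from the receptors and hemidesmosome genes it differed for Itga1 (5.39), Bcam (−2.02), Itgb4 (−1.80), Dst (1.67) and Cd151 (0.85). Genotype and line cannot be told apart in any of these. All include the Ctsd+/+ libraries in 1% FCS, with 1473 to 3629 CPM of fibroblast markers, whose part was not tested. For Col4a1, Col4a2, Nid1, Lama4, Fbln1, Smoc2, Loxl2 and Itga1 at least 1 group had few or no counts, so that the size depends on the prior count. For Col4a1, Col4a2 and Nid1, near 0 in Ctsd-/- cells at both times, the positive sign follows from the fall in Ctsd+/+ cells. Nid2 and P4ha3 were each at 0 counts in all 3 libraries of a group, and their fitted values of 11.23 and 10.83 compare with that 0 and are no estimate of size.

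Control tumor 2 stood apart from the other 3 control tumors for P4ha3, at 5.16 CPM with the nearest at 1.52 CPM, and for Bcam, at 71.6 CPM with the nearest at 35.6 CPM. These were 2 of 68 checks of a gene in a tumor group, and chance alone marks about 1 in 20.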

How the results depend on the processing

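Of the alternative values for single genes, 876 kept their direction and side of the threshold, 32 lost and 6 gained a call, and 41 turned direction; the cause was not tested. In tumors, 3 genes were called at an unadjusted p under 0.1, all higher, beside 8.44% of all genes that were higher. With a minimum of 10 counts in every library, which removes Col4a1, Col4a2 and Nid1 in cells, the counts were 4 (genotype in 1% FCS), 0 (genotype in 1% FCS LT), 5 (time in Ctsd+/+ cells) and 3 (interaction). The count for time in Ctsd-/- cells was 0 under limma-voom, with the 8 libraries of 1 LR number, and without both 1% FCS replicate 1 libraries, the last chosen after seeing the data. Of all genes, 2%, 4.98% and 3.18% were called in these settings. Leaving out 1 library at a time gave 0 called genes in tumors, 6 to 7 for genotype in 1% FCS, 3 to 4 in 1% FCS LT, 0 to 1 for time in Ctsd-/- cells, 7 to 8 in Ctsd+/+ cells and 6 to 7 for the interaction. In the same order, 0.0052% to 0.00526%, 39.9% to 46.4%, 31.1% to 35%, 0.391% to 2.53%, 38.6% to 44.3% and 23.4% to 31.1% of all genes were called. Same-numbered replicates did not all correlate above 0.1, so the numbers were not taken as pairs. With the replicate block the counts were 0, 7, 4, 1, 8 and 7 in the same order, the added gene in 1% FCS LT being Lamb3 (log2 −0.79, adjusted p = 0.0424). The shares of all genes called were 0.00537%, 49.3%, 40.7%, 2.62%, 47.1% and 31.1%. Every library correlated best with its own number between the genotypes in 1% FCS and between the times in Ctsd-/- cells, a hint from the data and not from the design.

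In tumors with the endothelial covariate the values turned to −0.26 for Col4a1, −0.17 for Col4a2, −0.31 for Col18a1, −0.20 for Nid1, −0.0019 for Hspg2, −0.15 for Lama3, −0.11 for Lama5 and −0.17 for Lamc1. With the adipocyte covariate they were −0.0047 for Col18a1, −0.080 for Nid1 and −0.15 for Lama3, and with the luminal covariate −0.24 for Lama5, which was −0.019 to 0.48 with 1 tumor left out. In cells the values that turned had not passed the test. Genotype in 1% FCS gave Col18a1 −0.013 with the 8 libraries, −0.012 without both replicate 1 libraries and −0.21 to 0.59 with 1 left out, and in 1% FCS LT −0.15 to 0.33. Time in Ctsd-/- cells gave Col18a1 −0.34 to 0.074 with 1 left out, Nid1 0.35 (8 libraries), 0.15 (without both) and −0.58 to 0.15, Hspg2 −0.029 (limma-voom), −0.0050 (replicate block) and −0.37 to 0.41, Lama5 −0.046 to 0.22, and Lamb3 −0.18 (8 libraries), −0.14 (LR block), −0.11 (without both) and −0.11 to 0.41. Col18a1 over time in Ctsd+/+ cells was −0.27 (8 libraries), −0.40 (without both) and −0.40 to 0.42, and its interaction 0.15, 0.079 and −0.55 to 0.28. Depth limits Col4a1, Col4a2 and Nid1 in Ctsd-/- cells, and Nid1 in Ctsd+/+ cells in 1% FCS LT.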

Other observations

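In cells, 6 pericyte markers summed to 577 to 692 CPM in Ctsd+/+ libraries in 1% FCS and 407 to 592 CPM in 1% FCS LT, and to 44.5 to 91.9 CPM in all Ctsd-/- libraries. Mcam made up most of it in 1% FCS (526 to 639 CPM) and Notch3 in 1% FCS LT (384 to 567 CPM), while Rgs5, Cspg4, Kcnj8 and Abcc9 were at or below 1.65 CPM in all cell libraries. The 8 myoepithelial markers summed to 19.3 to 103 CPM in Ctsd+/+ libraries and to 4.31 to 8.63 CPM in Ctsd-/- libraries. The 8 macrophage markers stood at 54.9 to 63.7 CPM in Ctsd+/+ cells in 1% FCS LT and at 6.96 to 27.3 CPM in the other cell libraries, with C1qa or C1qb at 0 in each group. Csf1r alone made up 53.0 to 58.2 CPM of the first range. The 10 endothelial markers summed to 2.50 to 11.4 CPM in all cell libraries, with Cldn5 at 0, and the 10 adipocyte markers to 2.90 to 31.5 CPM. In tumors pericyte markers were at 137 to 187 CPM in controls and 126 to 301 CPM in Ctsd-/- animals, myoepithelial markers at 571 to 1384 and 612 to 2275 CPM, luminal markers at 5968 to 9615 and 5506 to 6976 CPM, and macrophage markers at 801 to 1966 and 932 to 1858 CPM. The part of these in the results was not tested.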
